A study of Mus musculus with 5 samples.

Results

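The genes described here are 8 genes of thyroid hormone transport, activation and response in the adult mouse brain: Ttr, Slco1c1, Crym, Dio2, Thra, Thrb, Hr and Klf9. They were taken by symbol from the reference transcripts of the deposited expression table, and FPKM values (read fragments corrected for transcript length and library size) of rows with the same symbol were summed. They came to 8 of 20340 coding genes and 10 of 37142 transcript rows. They were chosen with their values in these libraries known, so their levels and differences are given as a description with no test. The study sequenced polyA RNA of microdissected, snap-frozen brain regions from adult male wild-type C57BL/6 mice. The regions were the subventricular zone (SVZ), which lines the lateral ventricle and holds neural stem cells, the olfactory bulb (OB), where neuroblasts born in the SVZ settle, the dentate gyrus (DG) of the hippocampus, and the striatum (STR), which served as the non-neurogenic control. There were 2 SVZ samples, called biological replicates in the labels, and 1 sample for each other region. The labels do not say how many animals went into a sample.

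Thyroid hormone reaches the brain mainly as thyroxine, which transthyretin carries in blood and cerebrospinal fluid and which membrane transporters take across the blood-brain barrier and into astrocytes. There the type 2 deiodinase turns it into the active hormone triiodothyronine, which enters neurons and binds nuclear receptors that sit on DNA with a retinoid X receptor. Without hormone the receptors recruit corepressors, and with it coactivators, and the hormone is known for its role in the timing of neuronal and oligodendrocyte differentiation, adult neurogenesis included.

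Promoter sequences are shown for 2 of the genes, from the RefSeq table on build GRCm38.p6, each running from 250 bases before to 50 bases after the annotated start. Thrb is shown because its deposited rows come from separate starts, and Dio2 because it encodes the activating enzyme. The capitals mark the motifs that were searched on both strands. They were TGACGTCA, the palindrome bound by cAMP-responsive factors, and AGGTCA, the nuclear receptor half-site. The E-box searched was CACGTG, which helix-loop-helix factors bind. The TATA box, which positions transcription starts, was searched as TATAAA. The Thrb windows are chr14:17660710-17661009 for the upstream start and chr14:17981394-17981693 for the downstream start, both on the plus strand, and the Dio2 window is chr12:90738989-90739288 on the minus strand.
Thrb upstream start: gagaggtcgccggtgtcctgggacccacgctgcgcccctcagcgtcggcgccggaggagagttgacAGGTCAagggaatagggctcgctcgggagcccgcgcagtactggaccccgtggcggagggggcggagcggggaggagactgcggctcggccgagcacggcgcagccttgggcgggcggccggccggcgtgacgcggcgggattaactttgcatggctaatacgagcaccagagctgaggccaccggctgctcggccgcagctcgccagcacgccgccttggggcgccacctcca
Thrb downstream start: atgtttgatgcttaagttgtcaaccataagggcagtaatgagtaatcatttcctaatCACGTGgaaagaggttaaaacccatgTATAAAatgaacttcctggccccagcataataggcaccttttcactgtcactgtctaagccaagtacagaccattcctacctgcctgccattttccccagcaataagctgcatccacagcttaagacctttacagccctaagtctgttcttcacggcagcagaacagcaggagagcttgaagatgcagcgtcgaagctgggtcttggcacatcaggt
Dio2: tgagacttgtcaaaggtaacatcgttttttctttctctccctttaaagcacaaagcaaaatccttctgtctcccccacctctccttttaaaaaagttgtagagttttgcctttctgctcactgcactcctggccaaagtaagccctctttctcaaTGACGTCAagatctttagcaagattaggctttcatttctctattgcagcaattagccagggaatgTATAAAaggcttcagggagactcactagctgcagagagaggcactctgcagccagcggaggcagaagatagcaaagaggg
The upstream Thrb window had a GC content of 72.7% and held AGGTCA with its first base 184 bases before the start. The downstream window had a GC content of 46% and held CACGTG 193 bases and TATAAA 167 bases before the start. The Dio2 window held TGACGTCA 95 bases and TATAAA 30 bases before its start. Among 32851 promoters of the same length, 1.79% held TGACGTCA, 16.3% AGGTCA, 7.15% CACGTG, 13.6% TATAAA and 0.0152% the spaced repeat. Promoters were listed for 4 of the 8 genes, and that of Klf9 held none of the motifs. The spaced repeat was in none of the listed promoters of these genes, and it is so rare that its absence says nothing about them. These matches describe letters in the windows and are not binding sites.

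The tissue markers followed the labels, except that those of striatal neurons were as high in SVZ as in STR. Summed FPKM of 9 ependymal markers was 408 and 174 in SVZ samples 1 and 2, against 7.05 to 25.5 elsewhere. Summed FPKM was highest in DG for granule neuron markers (681, against 23.5 to 148) and for cortical and CA (hippocampal) excitatory neuron markers (1101, against 94.2 to 545), and highest in OB for bulb neuron markers (1938, against 30.8 to 43.9) and for neuroblast markers (1130, against 176 to 572). Striatal projection neuron markers summed to 4349 in STR, and to 5133 and 4045 in SVZ samples 1 and 2, against 314 in OB and 87.9 in DG. Between 12253 and 13111 coding genes per library were at 1 FPKM or more. Read depth is unknown because FPKM carries no counts, so no counting interval is given. The libraries also fell into 2 sets that cut across the regions. SVZ sample 1, OB and DG had 414 to 563 FPKM of Gapdh and 14 to 24 transcripts shorter than 200 bases at 1 FPKM or more, while SVZ sample 2 and STR had 32.4 and 39.5 FPKM of Gapdh and 153 and 161 such transcripts. Differences are therefore given on the log2(FPKM + 1) scale, which understates those of low genes, both as deposited and within a set. Within-set values take SVZ sample 1 against OB or DG and SVZ sample 2 against STR, and OB or DG is bridged to STR through both SVZ samples.

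**Figure D1:**
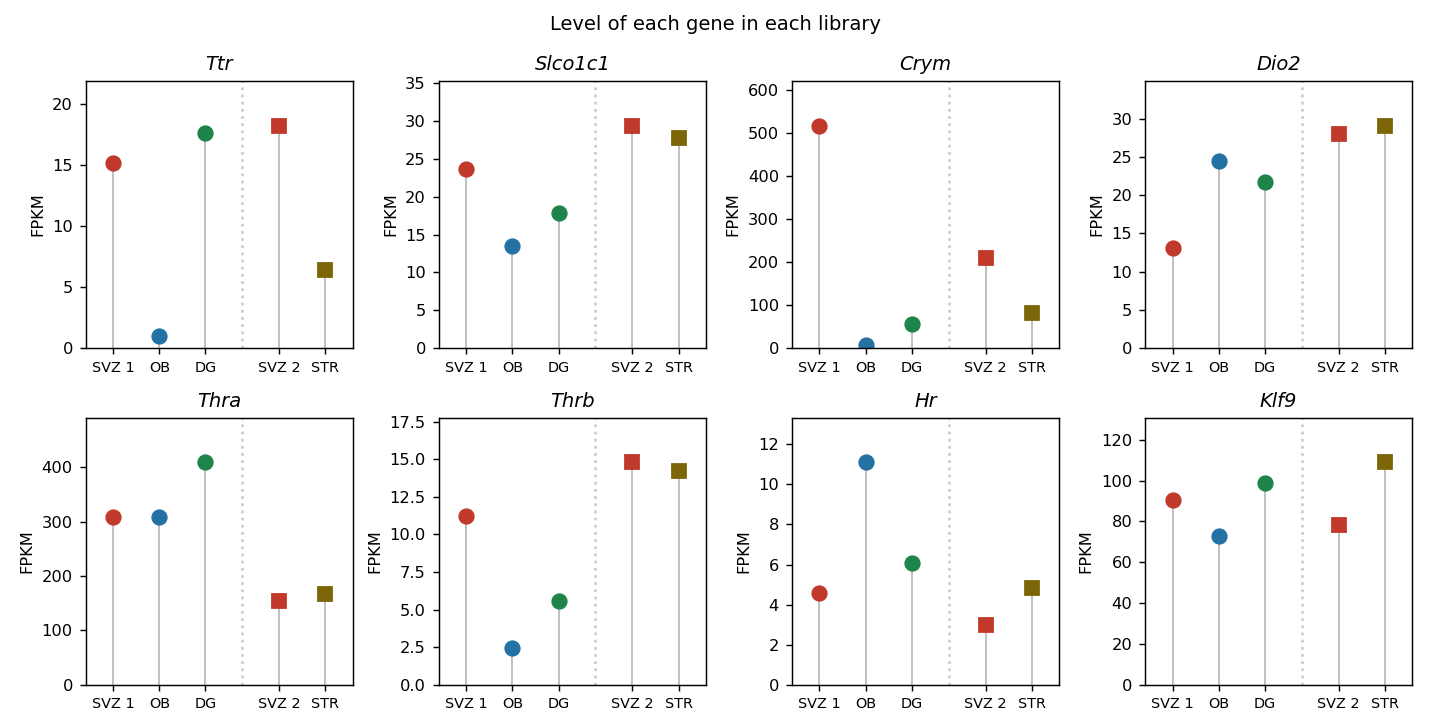
FPKM (vertical axis, from 0, a scale of its own for each gene) of the 8 genes in each library (horizontal axis); circles are SVZ sample 1, OB and DG, squares are SVZ sample 2 and STR, and a dotted line parts the library sets. Crym was highest in both SVZ samples, Ttr and Thrb were lowest in OB, and Thra was lower in both libraries of the right-hand set.

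Ttr encodes transthyretin, the thyroxine carrier that the choroid plexus makes in large amounts. It lies on chromosome 18 (mm9, chr18:20716616-20832827) in a deposited locus that it shares with Dsg2. Its level was 15.1 and 18.2 FPKM in SVZ samples 1 and 2 (16.6 ± 2.16, SD, n = 2), 0.95 in OB, 17.6 in DG and 6.37 in STR. DG lay between the SVZ samples, STR lay below both and OB was lowest. The SVZ samples differed by 0.25 log2 units. SVZ was 3.17 log2 units above OB (3.04 within the set) and 1.25 above STR (1.38 within the set), and DG was 1.33 above STR (1.59 bridged). Ttr spanned a 19.1-fold range over the 5 libraries.

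Because Ttr is abundant in the choroid plexus, which lies beside the SVZ and the hippocampus, the other 13 markers of that tissue are given beside it. Their summed FPKM was 40.5 and 21.7 in SVZ samples 1 and 2, 58.8 in OB, 8.19 in DG and 6.99 in STR. Aqp1, a water channel, made 50.7 of the OB sum. At 1 FPKM or more were 6 and 5 of the 13 in SVZ samples 1 and 2, 3 in OB, 2 in DG and 1 in STR. Folr1 was at 5.19 and 2.26 FPKM and Otx2 at 2.55 and 1.03 in SVZ samples 1 and 2, and both were under 0.4 FPKM in OB, DG and STR. Clic6 was at 10.2 and 9.74 FPKM in SVZ samples 1 and 2, 0.942 in OB, 0.528 in DG and 5.08 in STR, so that, DG aside, its regions had the same order as those of Ttr (SVZ, STR, OB). Lbp, at 19.6 FPKM, was the largest term of the sum in SVZ sample 1 and was at 5.44 in SVZ sample 2. DG, where Ttr was as high as in SVZ, had Kl at 3.54 FPKM, its highest level, and listed 4 of the 13 at 0 (Tmem72, Cldn2, Aqp1 and Col8a1). Sostdc1 was at 1.08 and 0.895 FPKM in SVZ samples 1 and 2, 0.418 in OB, 0.995 in DG and 0.08 in STR. The DG library listed more at 0 in general: 16725 transcript rows, against 9564 to 10807 in each other library. Prlr, Slc4a5, Cldn2 and Tmem72 stayed under 0.3 FPKM in every library. In bulk samples, fewer cells of a type and less RNA per cell cannot be told apart, and the part of choroid plexus RNA in the Ttr levels was not tested.

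**Figure D2:**
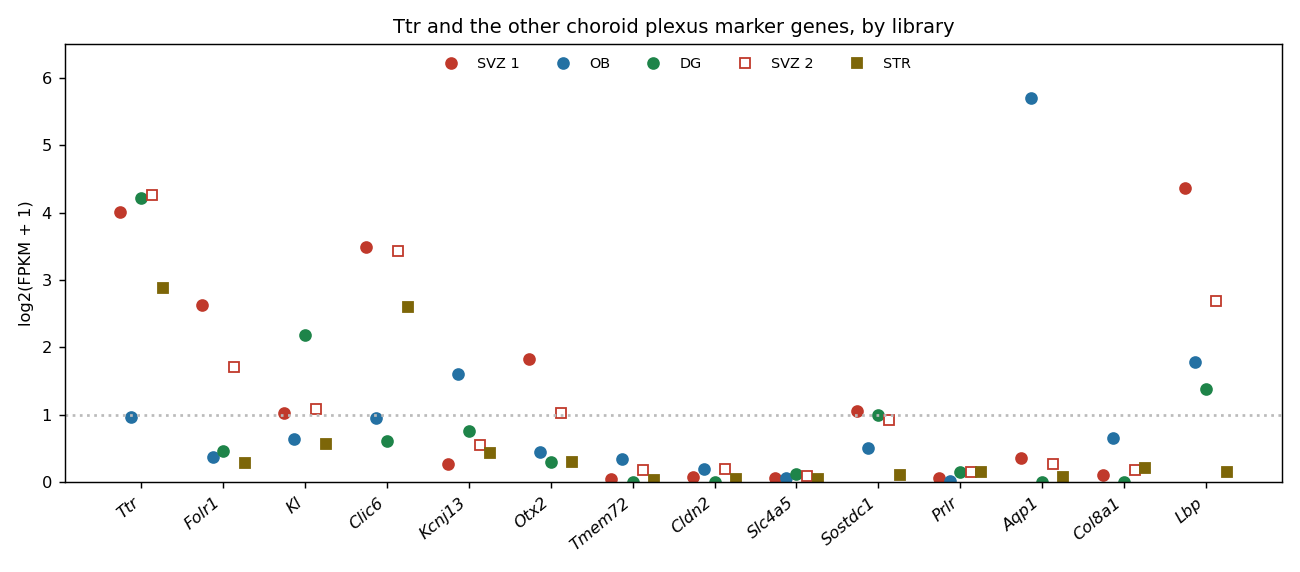
log2(FPKM + 1) (vertical axis) of Ttr and the 13 other choroid plexus markers (horizontal axis) in the 5 libraries, each point 1 library; the dotted line marks 1 FPKM. Ttr was at 17.6 FPKM in DG. Folr1, Otx2 and Clic6 were lower in DG than in both SVZ samples, Kl was higher (3.54 FPKM), and Sostdc1 (0.995) lay between them.

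Slco1c1 encodes the organic anion transporter OATP1C1, which carries thyroxine into brain endothelial cells and astrocytes (mm9, chr6:141472906-141518698). It was at 23.7 and 29.4 FPKM in SVZ samples 1 and 2 (26.5 ± 4.05, SD, n = 2), 13.5 in OB, 17.8 in DG and 27.8 in STR. STR lay between the SVZ samples, and DG and OB lay below both. None of the 6 differences between regions reached 1 log2 unit as deposited. The widest was OB minus STR, at -0.99 (-0.69 bridged, and -1.54 after median ratio scaling). SVZ minus OB was 0.91, and 1.18 after that scaling. The 12 endothelial markers, all at 1 FPKM or more in every library, summed to 251 and 138 FPKM in SVZ samples 1 and 2, 335 in OB, 183 in DG and 152 in STR. The 12 astrocyte markers summed to 1792 and 1373 in SVZ samples 1 and 2, 2182 in OB, 1963 in DG and 1437 in STR. Both sums were highest in OB, where Slco1c1 was lowest, but single markers differed. The sums rested on a few abundant genes, such as Aldoc (922 FPKM in OB) and Slc2a1 (137), while the astrocyte gene Slc1a2 was lowest in OB (163 FPKM, against 346 to 594). The endothelial gene Slco1a4 was at 10.9 and 17.6 FPKM in SVZ samples 1 and 2, 9.91 in OB, 8.23 in DG and 21.6 in STR. The part of cell composition in the Slco1c1 levels was not tested.

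The sum for Slco1c1 hides a split between its transcript rows, which differ in length by few bases (3175 and 3178). The shorter row was listed at 0 in SVZ sample 1, at 29.3 FPKM in SVZ sample 2, at 0.152 in OB, at 0 in DG and at 19.8 in STR. The longer row was at 23.7 FPKM in SVZ sample 1, 0.0326 in SVZ sample 2, 13.4 in OB, 17.8 in DG and 8.03 in STR. The longer row thus held nearly all of the sum in the first library set, while the shorter held 99.9% in SVZ sample 2 and 71.1% in STR. A shift of at least 90 percentage points between the SVZ samples was seen in 31 of 1703 genes with a pair of rows (1.82%). The split followed the library sets and not the regions, so no difference between regions is drawn from the rows.

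Crym encodes mu-crystallin, a cytosolic protein that binds triiodothyronine (mm9, chr7:127329897-127345502). It had the widest range of the 8 genes, 73-fold, with 517 and 210 FPKM in SVZ samples 1 and 2 (363 ± 217, SD, n = 2), 7.08 in OB, 55.8 in DG and 82.5 in STR. Both SVZ samples were above every other library although they differed from each other by 1.30 log2 units, or 2.46-fold. Its level ranked at percentile 99.7 and 99.1 among the coding genes of the SVZ samples and at 54 in OB. SVZ was 5.35 log2 units above OB (6.00 within the set), 2.54 above DG (3.19 within the set) and 1.98 above STR (1.34 within the set). The order of DG and STR was less settled: DG minus STR was -0.56, smaller than the gap between the SVZ samples, and -1.85 when bridged. OB minus DG was -2.81, and OB minus STR was -3.37 (-4.67 when bridged).

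Ependymal markers, like Crym, were highest in both SVZ samples, at a summed 408 and 174 FPKM. Elsewhere they summed to 25.5 in OB, 21.7 in DG and 7.05 in STR, where Crym was above its OB and DG levels. Single ependymal markers differed in the order of OB and DG. Foxj1 was at 7.49 FPKM in OB and 3.24 in DG, and Ccdc153 at 0.249 in OB and 2.31 in DG. Striatal projection neuron markers were high in both SVZ samples and STR and low in OB and DG. In DG, Crym was at 55.8 FPKM while the striatal sum was 87.9, its lowest. The ratio of Crym to Thra, the main receptor, was 1.68 and 1.36 in SVZ samples 1 and 2, 0.0229 in OB, 0.136 in DG and 0.496 in STR. RNA for the hormone-binding protein thus exceeded that of the receptor in SVZ samples 1 and 2 and in no other library. The part of these cell types in the Crym levels was not tested.

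Dio2 encodes the type 2 deiodinase, a selenoenzyme that makes triiodothyronine from thyroxine (mm9, chr12:91962991-91989133). Its level was 13.1 and 28 FPKM in SVZ samples 1 and 2 (20.5 ± 10.5, SD, n = 2), 24.5 in OB, 21.7 in DG and 29.1 in STR. OB and DG lay between the SVZ samples, and STR was just above the higher of them. The SVZ samples differed by 1.04 log2 units, more than any region differed from another. The region means spanned 0.57 log2 units, and OB minus STR went from -0.24 as deposited to 0.80 when bridged, so no order of the regions is given. The inactivating deiodinase Dio3 was at 1.91 and 1.06 FPKM in SVZ samples 1 and 2, 2.03 in OB, 0.584 in DG and 0.164 in STR, and Dio1, the liver and kidney enzyme, was listed at 0 in all 5 libraries. The ratio of Dio2 to Dio3 was 6.88 and 26.3 in SVZ samples 1 and 2, 12.1 in OB, 37.2 in DG and 177 in STR. Dio2 RNA exceeded Dio3 RNA in every library, and the ratio was highest in STR, where Dio3 was lowest. Dio3 was under 1 FPKM in DG and STR, so the ratios there rest on low values. The SVZ samples alone gave 6.88 and 26.3. Dio3 in SVZ minus STR was 1.07 log2 units as deposited and 0.82 within the set.

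Thra encodes thyroid hormone receptor alpha, the main receptor of the brain (mm9, chr11:98603186-98626425). It was at 308 and 154 FPKM in SVZ samples 1 and 2 (231 ± 108, SD, n = 2), 309 in OB, 409 in DG and 166 in STR. It ranked at percentile 98.5 to 99.5 among the coding genes of each library. The levels parted by library set and not by region: the 3 libraries of the first set had 308 to 409 FPKM and both libraries of the other had 154 and 166. DG minus STR was 1.29 log2 units as deposited and 0.30 when bridged, and the gap between the SVZ samples was 0.99. Across coding genes at 1 FPKM or more in an SVZ sample, SVZ sample 1 was likewise above sample 2, by a median of 0.34. OB minus STR was likewise 0.89 as deposited and -0.10 when bridged. Nr1d1, which neighbours Thra, was at 97.2 and 49.2 FPKM in SVZ samples 1 and 2, 95.7 in OB, 89.9 in DG and 61.5 in STR, and its deposited span did not overlap that of Thra.

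Thrb encodes receptor beta (mm9, chr14:18493473-18870602), which is known to be made as a beta-1 and a beta-2 form from separate starts. Its level was 11.2 and 14.8 FPKM in SVZ samples 1 and 2 (13 ± 2.56, SD, n = 2), 2.47 in OB, 5.54 in DG and 14.2 in STR. STR lay between the SVZ samples, which differed by 0.37 log2 units, DG was below them and OB lowest. SVZ was 2.00 log2 units above OB (1.81 within the set) and 1.09 above DG (0.90 within the set). OB minus STR was -2.13 (-1.76 when bridged) and DG minus STR -1.21 (-0.84 when bridged). The 3 libraries with high Thrb were also those in which striatal projection neuron markers summed to 4045 to 5133 FPKM, and the part of these neurons in the Thrb levels was not tested.

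The rows of Thrb came from an upstream and a downstream start, which lie 321 kb apart in the GENCODE annotation of GRCm38 (chr14:17660896 and chr14:17981529). These GENCODE starts fall inside the promoter windows printed above. They lie before the RefSeq starts from which the motif distances were counted. The row of the upstream start held 99% to 100% of the sum in every library. The row of the downstream start was at 0.11 FPKM in SVZ sample 1 and 0.0633 in STR, and was listed at 0 in SVZ sample 2, OB and DG. Thra RNA exceeded Thrb RNA in all libraries. The ratio of Thra to Thrb was 27.5 and 10.4 in SVZ samples 1 and 2, 125 in OB, 73.8 in DG and 11.7 in STR. It was highest in OB and DG, which lay above both SVZ samples and STR, and within the first library set it was 27.5, 125 and 73.8.

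**Figure D3:**
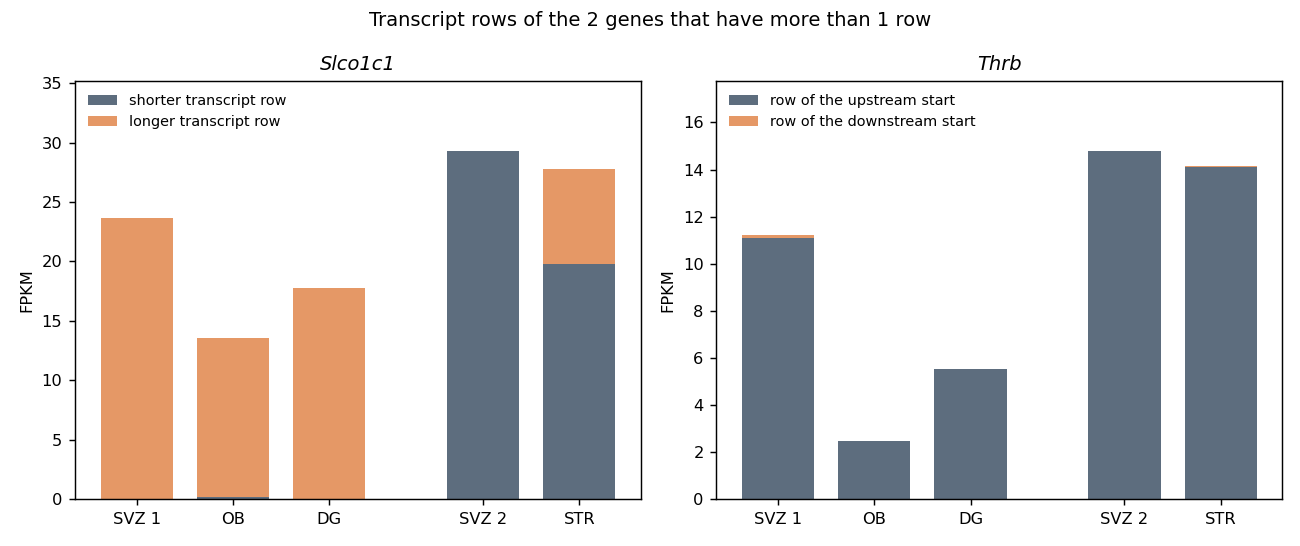
FPKM (vertical axis, from 0) of the transcript rows of Slco1c1 and Thrb in each library (horizontal axis), stacked to the sum of the gene; a gap parts the library sets. The Slco1c1 row in use changed with the library set, while the upstream-start row of Thrb held 99% or more in each library.

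Hr encodes hairless, a corepressor of the receptors that is itself induced by thyroid hormone in rodent brain (mm9, chr14:70953862-70973349). It was the lowest of the 8 genes in SVZ, at 4.57 and 3 FPKM in SVZ samples 1 and 2 (3.78 ± 1.11, SD, n = 2), with 11.1 in OB, 6.06 in DG and 4.85 in STR. OB was above every other library, and the remaining libraries lay within 3 to 6.06 FPKM. SVZ minus OB was -1.36 log2 units (-1.12 within the set), a larger difference than the 0.48 between the SVZ samples. OB minus STR was 1.05 as deposited and 0.57 when bridged, and 0.54 after median ratio scaling of the libraries.

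Klf9 encodes a zinc finger transcription factor that is a direct target of the receptors in brain (mm9, chr19:23215715-23241401). It was at 90.4 and 78.5 FPKM in SVZ samples 1 and 2 (84.5 ± 8.44, SD, n = 2), 72.8 in OB, 98.7 in DG and 109 in STR. Its range over the libraries, 1.49-fold, was the narrowest of the 8 genes. The region means spanned 0.57 log2 units, and no difference reached 1 log2 unit as deposited. The hormone-induced genes Hr and Klf9 thus ordered the regions differently: Hr was highest in OB, and Klf9 was lowest there.

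Read as orders of the 4 regions, the genes differed in how many neighbours stood apart by more than the gap between the SVZ samples. For Dio2 and Thra no neighbours did. Because the SVZ samples lie in different library sets, that gap also holds any difference between the sets. For Ttr the order was DG and SVZ together, then STR, then OB. For Crym it was SVZ, then STR and DG together, then OB. For Thrb it was STR and SVZ together, then DG, then OB, and Slco1c1 had the same order with narrower steps, of 0.54 and 0.38 log2 units. For Hr, OB stood above DG, STR and SVZ, whose neighbouring steps were 0.27 and 0.31, while DG and SVZ, at its ends, differed by more (SVZ minus DG -0.58) than the 0.48 between the SVZ samples. Klf9 placed STR and DG together above SVZ and SVZ above OB, by steps of 0.23 and 0.21 against a gap of 0.20 between the SVZ samples.

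Counted by size, 17 of the 48 differences (8 genes in 6 pairs of regions) were at least 1 log2 unit. Because the genes were chosen from these values, the share of all coding genes past that size is printed beside each count for scale only. In SVZ against STR, 2 genes were higher (Crym and Ttr) and 0 lower, beside 7.13% and 1.15% of 13375 coding genes. In SVZ against OB, 3 were higher (Crym, Ttr and Thrb) and 1 lower (Hr), beside 7.22% and 14.9%. In SVZ against DG, 2 were higher (Crym and Thrb) and 0 lower, beside 10.7% and 8.07%, and within the set Crym alone stayed above 1. The median difference of the 8 genes was -0.10, 0.56 and -0.13 in these pairs, and that of all coding genes 0.24, -0.24 and 0.01.

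The pairs without SVZ rest on 1 library a region. In OB against STR, 1 gene was higher (Hr) and 3 lower (Ttr, Crym and Thrb), beside 30.7% and 6.71% of 13365 coding genes, and when bridged Hr dropped out. In DG against STR, 2 were higher (Ttr and Thra) and 1 lower (Thrb), beside 17.6% and 8.36%. When bridged, Ttr alone was higher and Crym, at -1.85, alone lower, with Thra at 0.30 and Thrb at -0.84. In OB against DG, which share a library set, 0 were higher and 2 lower (Ttr and Crym), beside 14.4% and 5.31%. Thrb, at -0.92 there, reached -1.14 and -1.03 with pseudocounts of 0.1 and 0.5, and -1.11 after median ratio scaling. The medians of the 8 genes were -0.78, -0.27 and -0.42, and those of all coding genes 0.53, 0.26 and 0.25. OB was therefore the region in which Ttr, Crym and Thrb were lowest in each of its pairs, and these pairs share the OB library.

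**Figure D4:**
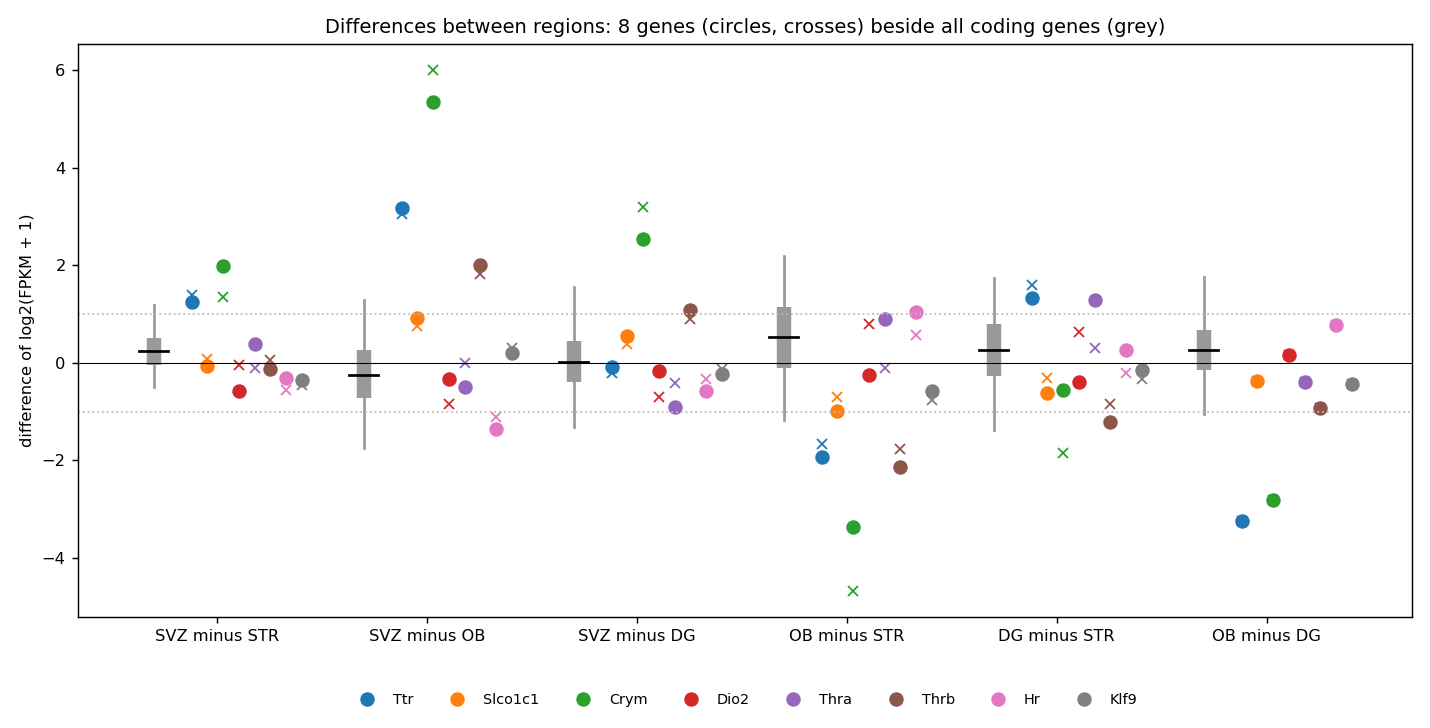
Difference of log2(FPKM + 1) (vertical axis) in the 6 pairs of regions (horizontal axis): filled circles are the 8 genes as deposited, crosses the same within a library set or bridged, and the grey bars and lines the spread of all coding genes with a black line at the median (0.53 in OB minus STR). Dotted lines mark 1 log2 unit each way; the Thra circle of DG minus STR, at 1.29, lies beyond it and its cross, at 0.30, within.

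The other genes of the pathway were 68 genes in 7 lists, of which 49 to 57 were at 1 FPKM or more in a pair of regions. The lists too were chosen with earlier results of these data known. The shares of all coding genes beside their counts, here and below, are therefore for scale only. With limma on all 5 libraries, whose only residual degree of freedom is that of the SVZ pair, 0 of them and 0 of all coding genes had a Benjamini-Hochberg adjusted p under 0.05 in any pair. This rested on which genes entered the fit, a choice made after the outcomes were seen: with expressed genes only, up to 744 coding genes and 9 of the pathway genes were called (SVZ against OB). At an unadjusted limma p under 0.05 were 1 of 49 in SVZ against STR, 15 of 56 in SVZ against OB, 13 of 54 in SVZ against DG, 13 of 55 in OB against STR, 12 of 52 in DG against STR and 15 of 57 in OB against DG. The shares of all coding genes at that level were 3.52%, 12.5%, 11.2%, 11%, 8.61% and 10.5%. By size, 2 were higher and 2 lower in SVZ against STR (4.08% each, beside 7.13% and 1.15% of all coding genes), and 6 higher and 14 lower in SVZ against OB (10.7% and 25%, beside 7.22% and 14.9%). In SVZ against DG 9 were higher and 12 lower (16.7% and 22.2%, beside 10.7% and 8.07%). In OB against STR they were 19 and 9 (34.5% and 16.4%, beside 30.7% and 6.71%), so the share of higher genes was near that of all coding genes. In DG against STR they were 14 and 12 (26.9% and 23.1%, beside 17.6% and 8.36%), and in OB against DG 10 and 6 (17.5% and 10.5%, beside 14.4% and 5.31%).

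Among the blood carriers, Serpina7 (thyroxine-binding globulin) and Alb (albumin) were under 0.05 FPKM in every library, so Ttr and Crym were the binding proteins with RNA at 1 FPKM or more. Among 11 other transporters, 9 reached 1 FPKM in a library. Slc16a10, which encodes MCT10, was at 1.55 FPKM in OB and 2.51 in DG and under 0.3 in the other 3 libraries, so it was higher where Slco1c1 was lower. The amino acid carriers Slc7a5 and Slc3a2, which together form the large neutral amino acid transporter LAT1, were highest in OB (49.6 and 86.6 FPKM). Slco3a1 was also highest in OB, at 30.7 FPKM against 9.03 to 15.

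Of the genes that handle deiodinases, Wsb1, which marks the Dio2 protein for degradation, was at 51 and 50.1 FPKM in SVZ samples 1 and 2, 60 in OB, 39.6 in DG and 30.4 in STR. Usp33, which reverses that mark, was at 37.2 and 49.3 in SVZ samples 1 and 2, 34.9 in OB, 44.9 in DG and 56.3 in STR. Wsb1 was thus lowest and Usp33 highest in STR, and neither differed by 1 log2 unit in any pair. Rxrg, a retinoid X receptor and partner of the hormone receptors, had the widest span of region means on the log2(FPKM + 1) scale among the 68 genes, 5.25 units, with 84.2 and 65.7 FPKM in SVZ samples 1 and 2, 8.95 in OB, 1.49 in DG and 93.7 in STR. SVZ minus DG was 4.92 ± 0.32 (limma SE) for Rxrg, with an adjusted p of 0.233, and 5.09 within the set. Like Thrb it was high in both SVZ samples and STR. Rxrb stayed between 25.2 and 42.8 FPKM, and Itgav, a subunit of the integrin that binds thyroxine at the cell surface, was lowest in DG at 9.4 and highest in OB at 28.8.

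All 12 other corepressors and coactivators were at 1 FPKM or more. Tbl1x, a subunit of the corepressor complex, was at 11.1 FPKM in DG and 27 to 33.9 elsewhere. The deacetylase gene Hdac3 was at 50.2 and 35.4 FPKM in SVZ samples 1 and 2, 50.3 in OB, 47.2 in DG and 31.1 in STR. Gps2, another subunit, was at 28.5 and 16.9, 32, 28.6 and 12.9 FPKM in the same order, and its OB minus STR difference went from 1.25 to 0.53 when bridged. The coactivator gene Crebbp was at 24.2 and 12.2 in SVZ samples 1 and 2, 32.5 in OB, 23.3 in DG and 12.4 in STR. Hdac3, Gps2 and Crebbp thus parted by library set, as Thra did. The gap between the SVZ samples was 0.49 log2 units for Hdac3, 0.72 for Gps2 and 0.93 for Crebbp. Among 13266 coding genes at 1 FPKM or more in an SVZ sample, sample 1 was above sample 2 by a median of 0.34. A gap in that direction was therefore common.

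Of the other genes known to respond to thyroid hormone in brain or liver, 5 of 23 were at least 1 log2 unit higher and 7 lower in SVZ against OB, beside 7.22% and 14.9% of all coding genes. In SVZ against DG 7 of 22 were higher and 7 lower, beside 10.7% and 8.07%, and in SVZ against STR 0 of 20 and 2, beside 7.13% and 1.15%. Nrgn, the postsynaptic calmodulin-binding protein neurogranin, was at 441 and 288 FPKM in SVZ samples 1 and 2, 234 in OB, 2008 in DG and 802 in STR. Camk4, a calcium-dependent kinase, was at 55.6 and 86.3 in SVZ samples 1 and 2 and 106 in STR, against 10.7 in OB and 9.27 in DG. Stac2, an adaptor of calcium channels, was at 73.5 FPKM in OB and at most 20.3 elsewhere.

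The growth factor gene Bdnf was at 17.6 FPKM in DG, 3.09 in OB and under 1 in the other 3 libraries, with SVZ minus DG at -4.13 ± 0.22 (limma SE, adjusted p = 0.213). The immediate early gene Egr1 was at 27.1 FPKM in DG and 158 to 265 elsewhere. Mbp, which encodes myelin basic protein, was at 1702 and 1301 FPKM in SVZ samples 1 and 2, 723 in OB, 449 in DG and 1468 in STR. The 11 oligodendrocyte markers, Mbp among them, summed to 3318 and 2796 FPKM in SVZ samples 1 and 2, 1552 in OB, 897 in DG and 3144 in STR, and their part in the Mbp levels was not tested. The named responsive genes thus had their highest levels in different regions.

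Of 10 genes listed for hormone synthesis in the thyroid gland, genes of thyrotropin and its receptor among them, 6 reached 1 FPKM in a library. Slc26a4 (pendrin) and Iyd (iodotyrosine deiodinase) were at 6.66 and 7.86 FPKM in DG and under 0.2 FPKM in the other 4 libraries. OB minus DG was -2.82 ± 0.08 for Slc26a4 and -2.94 ± 0.10 for Iyd (limma SE), with adjusted p of 0.066 and 0.0704. Slc5a5, the sodium iodide symporter gene, was at 5.8 FPKM in OB and 0.692 to 3.02 elsewhere. Duox2, an oxidase gene, was at 1.57 FPKM in OB and under 0.01 in the other libraries, with SVZ minus OB at -1.36 ± 0.03 (limma SE, adjusted p = 0.0614). The small standard errors of Slc26a4, Iyd and Duox2 come from SVZ values near 0, which a pseudocount of 1 flattens. With a pseudocount of 0.1, the smallest adjusted limma p of any pathway gene was 0.226 in SVZ against OB and 0.266 in OB against DG.

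**Figure D5:**
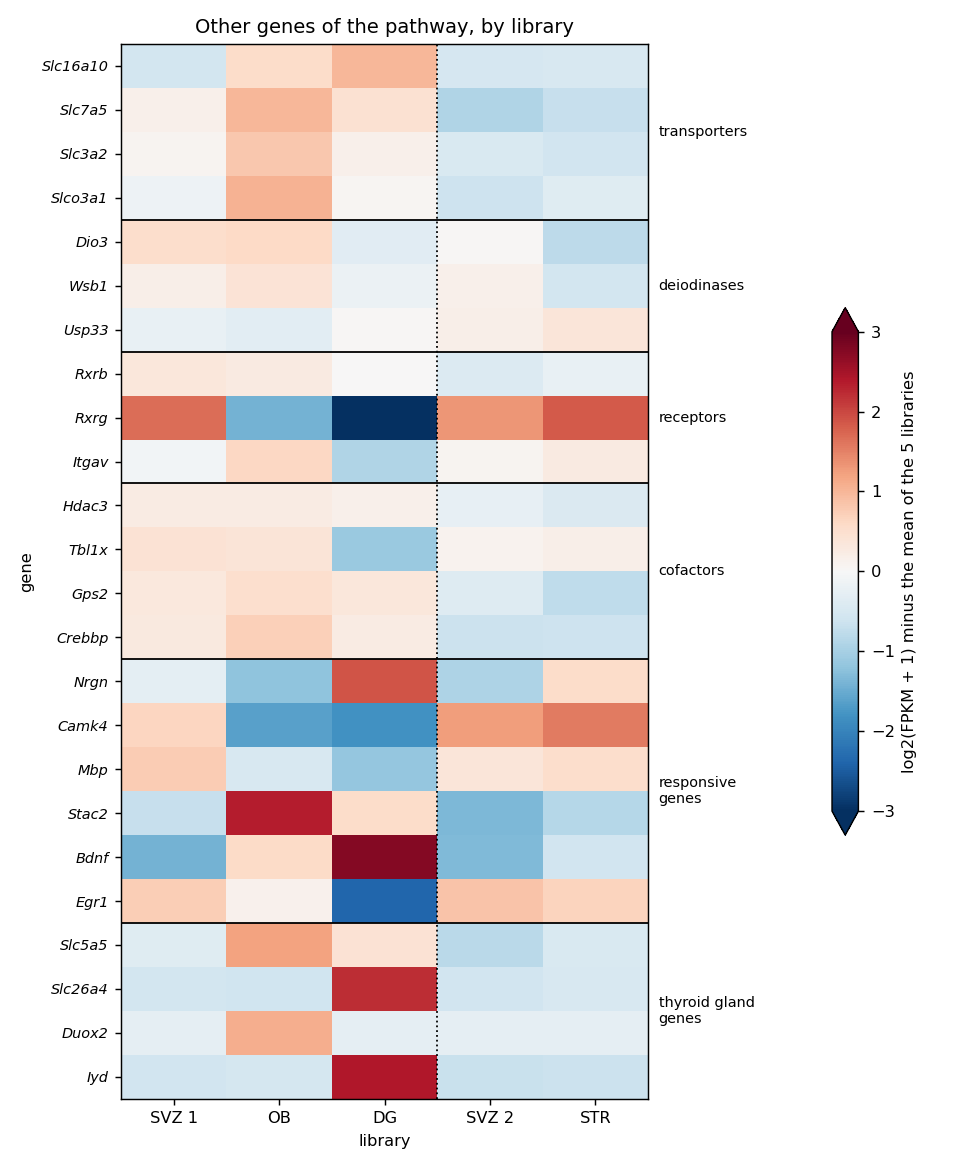
log2(FPKM + 1) minus the mean of the 5 libraries (colour, ends of the scale at 3 units each way) of 24 named other genes of the pathway (rows, grouped by list) in each library (columns; the dotted line parts the library sets). Rxrg and Camk4 were high in both SVZ samples and STR, and Slc26a4, Iyd and Bdnf were highest in DG.

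The coding genes with the most similar profiles were found among 10088 genes with a mean of at least 5 FPKM, by the distance between log2(FPKM + 1) values centred on their mean over the 5 libraries. For Crym the nearest was Pdyn, the prodynorphin gene, at a distance of 0.79, with 133 and 116 FPKM in SVZ samples 1 and 2, 2.23 in OB, 21.9 in DG and 31.2 in STR. The next was Gng7, a G protein subunit gene, at 1.53. For Ttr the nearest were Lypd1 (0.38) and Rbm24 (0.76), and for Thrb Arhgap26 and Ppp1r9a (both 0.26). Thra lay nearest to Sez6l2 (0.11) and Fbxo31 (0.13), Slco1c1 to Fam49a (0.08) and Ccng2 (0.13), Hr to Grin2c (0.13) and Abhd3 (0.22), Klf9 to Ppp1r16b and Vps13b (both 0.13), and Dio2 to Eps15 (0.36) and Me1 (0.38). Me1 is itself on the list of responsive genes. Crym was the gene with the most distant nearest profile, but the distance was not scaled for range and Crym also had the widest range. With 5 libraries such likeness is a description.

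The authors' catalogue of long noncoding RNAs had 10 transcripts within 50 kb of 6 of the genes, 4 of them at 1 FPKM or more in a library. One of the 10 lay inside the Dio2 locus (chr12:91976641-91989133 on mm9, 4 exons), on the plus strand while Dio2 is on the minus strand. It was at 0.698 and 0.592 FPKM in SVZ samples 1 and 2, 0.655 in OB, 0.743 in DG and 0.849 in STR, under 1 FPKM throughout. Another lay in the deposited locus of Ttr and Dsg2, at 0.292 FPKM in DG and under 0.03 elsewhere. The 4 at 1 FPKM or more were 3 transcripts of Gm12359, beyond 30 kb from Thra, with at most 2.62 FPKM, and 1 transcript beside Klf9 with 1.34 FPKM in SVZ sample 1 and 0.415 to 0.769 elsewhere. Dsg2, the desmosomal gene in the Ttr locus, was at 4.6 and 2.96 FPKM in SVZ samples 1 and 2, 0.196 in OB, 2.7 in DG and 0.201 in STR. The sources used here give no strandedness of the libraries, so Dio2 and the transcript opposite to it cannot be told apart in shared sequence.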

How the data were processed

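The tools CASAVA, TopHat 1.2.0 and Cufflinks 1.0.0 and the build mm9 appear, without role or order, per the submitters' processing notes. The deposited table holds FPKM values that the authors computed per transcript in 5 libraries, per the file headers. The deposited lncRNA annotation gives exon coordinates on mm9 and a constant display score, which was not used. The series mixed paired and single reads, and the labels do not assign them to samples. Per library, 26.6% to 36.3% of low FPKM values lay within 0.1 step of a whole multiple of the best step, where chance gives 20%, so no read depth could be recovered. A gene listed at 0 may be one whose estimate failed.

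FPKM was summed per symbol (python 3.11.15, pandas 2.3.3) and compared as log2(FPKM + 1) between the 6 pairs of the 4 regions. A gene was counted when it differed by at least 1 log2 unit and reached 1 FPKM in either region of the pair. limma 3.58.1 (R 4.3.3) with a trended empirical Bayes prior was run on every coding gene above 0 in a library, with 4 region groups and 1 residual degree of freedom, and p-values were adjusted over the genes that passed the filter. Regions with 1 library are thus assumed to vary like the SVZ samples. The written design did not say which genes enter the fit, and this fit was chosen after the results of the others had been seen. The limma procedure was run on simulated data without a library-set effect, so that run does not show how it behaves on these libraries. The members, pathway lists and marker lists were chosen with earlier results of these data known, and the promoter motifs after the sequences had been seen.

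Besides the 8 members, the text names, in each pathway list, up to 4 genes with the widest span between regions among those spanning 1 log2 unit, the 2 with the highest mean FPKM and every deiodinase. Of the genes this rule takes, 2 are not reported here. For each member it names the 2 coding genes with the nearest profile. Marker genes and neighbours are named beside the member they bear on, chosen after their values were seen. Marker symbols not found in the table numbered 2. Alternatives were pseudocounts of 0.1 and 0.5 FPKM, median ratio scaling, leaving out an SVZ sample, within-set differences, the highest transcript, no filter, no trend, 10 kb in place of 50 kb and other gene sets in the fit. Where nothing says that samples came from separate animals, p-values measure only the spread between the SVZ samples, which the labels call biological replicates. These samples lie in different library sets and the fit has no set term. That spread, and with it the limma SE, thus also holds any difference between the sets. Coordinates of the files are on mm9 and sequences on GRCm38.p6, and none was converted.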

Additional observations from a re-analysis of the deposited data

How the results depend on the processing

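Of the 17 member differences of at least 1 log2 unit, 12 stayed at least 1 under every alternative run, and 0 changed sign. The exceptions were Thra in DG against STR (0.30 to 1.30), Hr in OB against STR (0.54 to 1.18), Thrb in SVZ against DG (0.90 to 1.27) and in DG against STR (-1.50 to -0.84) and Ttr in SVZ against STR (0.99 to 1.38). Counts of members past 1 log2 unit in SVZ against DG went from 2 to 1 within the library set, and ranged from 1 (without SVZ replicate 2) to 3 (without SVZ replicate 1, where Thra reached -1.40). In SVZ against STR the count went from 2 to 1 under median ratio scaling. Other pathway genes past 1 log2 unit in OB against STR went from 28 to 18 when bridged, and in SVZ against STR from 4 to 2 within the set and to 2 without SVZ replicate 1, and 10 kb in place of 50 kb left 6 catalogue transcripts. Median ratio scaling moved the median of all coding genes in OB minus STR from 0.53 to 0.02, and the share of higher calls from 82.1% to 50.2%. In the same pair Klf9 then differed by -1.15 and Slco1c1 by -1.54. Slco1c1 in SVZ minus OB was 1.06 without SVZ replicate 1.

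The limma calls rested on the genes in the fit, alternatives added after seeing the data. With genes at 1 FPKM or more in any library, the other pathway genes called were 0 in SVZ against STR, 7 in SVZ against OB, 7 in SVZ against DG, 0 in OB against STR, 4 in DG against STR and 3 in OB against DG, beside 0%, 4.55%, 2.63%, 1.91%, 0.623% and 2.06% of all coding genes. With genes at that level in the pair, they were 1, 9, 9, 7, 5 and 7, beside 1.44%, 5.38%, 4.67%, 4.7%, 2.47% and 4.56%. The prior degrees of freedom were 1.41 in the fit reported, 5.03 in the first alternative and 5.74 to 24 in the second. OB, DG and STR have 1 library each, so no paired analysis was possible and no spread within them was measured.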
